A study of Mus musculus with 4 samples.

Results

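The regions described here are accessible chromatin regions that DN3 thymocytes and naive CD4 T cells shared, and whose peaks were relatively stronger in the mice lacking Scd1 in both cell types. The peaks of 4 ATAC-seq lists were merged where they touched by at least 1 bp, which gave 90270 union regions on chromosomes 1 to 19 and X. Of these, 37418 held a peak in all 4 lists and 36229 of those were at least 500 bp wide. The value of a region in a library was its highest peak fold, the fragment pileup at the summit over the local background as the authors' peak caller gave it, divided by the median fold of that list. The ratio of a cell type was the value without Scd1 divided by the control value. The members were the 300 regions of the 36229 with the highest smaller ratio of the pair, so they were chosen by these measured values, and their ratios are given as a description only. The limit this set was a ratio of 1.24 in both cell types.

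The series compared chromatin accessibility between genotypes in primary, untreated mouse cells, with 1 library for each genotype and cell type. The groups were DN3 thymocytes of littermate controls, DN3 thymocytes of Scd1 knockout mice, splenic naive CD4 T cells of littermate controls, and splenic naive CD4 T cells of Scd1 knockout mice, named Scd1-deficient in the figures. The titles of the control samples carry the unexplained letters HZ, and it is not known if those mice had 2 intact copies of Scd1. The DN3 cells were Lin-CD4-CD8-CD44-CD25+ cells taken by bead depletion and then flow sorting, and the naive cells were taken with a bead kit alone. The age of the mice, the number of animals in a library, the part of Scd1 that was deleted and whether it was missing in all cells are not stated in the labels. With 1 library per group no difference between genotypes has a replicate check and no p-value is given. Intervals are 95% intervals that cover counting error only, and PCR duplicates may be among the fragments.

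In ATAC-seq the transposase Tn5 cuts and tags DNA that is not wrapped in nucleosomes, so a peak marks an accessible promoter, enhancer or other regulatory element. Promoters of widely used genes tend to be accessible in most cell types, whereas elements inside and between genes vary more with cell type. DN3 thymocytes rearrange the T cell receptor beta chain and signal through Notch and the pre-TCR. Naive CD4 T cells have completed thymic development and circulate in a resting state. Scd1, stearoyl-CoA desaturase, places a double bond in saturated fatty acids and so makes monounsaturated ones such as oleate.

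The 4 lists held 46585 to 76828 peaks, and their lowest local background, which scales with depth, ranged from 3.65 fragments in the naive knockout list to 5.12 in the naive control list. Those 2 lists also differed in their narrowest peak, 225 and 275 bp. The DN3 lists were closer, at 4.47 and 4.72 fragments and 214 and 217 bp. All 10 DN3 markers had a gene-end peak, within 1 kb of an annotated end of the gene, in both DN3 libraries, and 6 and 7 had one in the naive control and knockout libraries. All 12 naive CD4 markers had one in both naive libraries and 11 in both DN3 libraries. The median value of the naive markers with a peak was higher in DN3 cells, 1.24 and 1.29, than in naive cells, 0.750 and 0.813. That of the DN3 markers with a peak was higher in naive cells, 1.17 and 1.15, than in DN3 cells, 0.914 and 0.888. Rag2, Ptcra and Dntt had no such peak in either naive library, and Rag1 had none in the naive control. The medians leave these out and so compare different genes, and they cannot show whether the values separate the cell types. Ptcra, the pre-TCR alpha chain, had a value of 1.26 and 1.39 in the DN3 control and knockout libraries and no such peak in naive cells. Of 12 B cell markers 6 or 7 had a peak in each library, with no peak at Ms4a1 or Ciita in any. Of 14 myeloid markers 5 or 6 had one. Of 12 stromal, epithelial and endothelial markers 9 and 8 had one in the DN3 control and knockout libraries and 3 and 4 in the naive ones. The part of other cell types in the results was not tested.

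Of the 300 regions, 24 overlapped the start window of a protein-coding gene, 250 bases before to 50 after an annotated start. In 8 of these the summit of all 4 libraries lay inside the window. The first 6 of the 8, in the order of their smaller ratio, are printed because they are the members in which the accessible centre and a known start coincide. This choice was made after the values were seen. The sequences are RefSeq's for the assembly GRCm38.p6, which is mm10, each of 300 bases, 5′ to 3′ on the strand of the gene. Capitals mark matches to the 16 searched motifs on either strand.
Zfp93: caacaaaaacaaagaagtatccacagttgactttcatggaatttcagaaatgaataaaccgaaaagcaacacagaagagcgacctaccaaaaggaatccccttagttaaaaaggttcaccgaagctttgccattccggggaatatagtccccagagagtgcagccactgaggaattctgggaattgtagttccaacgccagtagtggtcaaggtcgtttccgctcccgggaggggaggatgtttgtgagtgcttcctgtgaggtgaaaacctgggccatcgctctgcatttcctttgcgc
Tmod1: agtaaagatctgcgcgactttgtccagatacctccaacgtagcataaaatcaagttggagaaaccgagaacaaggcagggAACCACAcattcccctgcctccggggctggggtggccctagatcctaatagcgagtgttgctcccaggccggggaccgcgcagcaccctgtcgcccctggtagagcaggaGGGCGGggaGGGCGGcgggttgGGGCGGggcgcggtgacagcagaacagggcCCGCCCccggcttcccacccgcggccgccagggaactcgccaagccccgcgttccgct
Trim2: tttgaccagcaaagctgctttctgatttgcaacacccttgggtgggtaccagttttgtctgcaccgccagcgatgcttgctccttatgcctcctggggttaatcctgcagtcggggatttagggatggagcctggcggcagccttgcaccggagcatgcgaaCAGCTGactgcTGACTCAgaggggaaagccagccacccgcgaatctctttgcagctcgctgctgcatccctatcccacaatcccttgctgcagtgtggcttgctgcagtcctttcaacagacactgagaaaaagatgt
Bcam: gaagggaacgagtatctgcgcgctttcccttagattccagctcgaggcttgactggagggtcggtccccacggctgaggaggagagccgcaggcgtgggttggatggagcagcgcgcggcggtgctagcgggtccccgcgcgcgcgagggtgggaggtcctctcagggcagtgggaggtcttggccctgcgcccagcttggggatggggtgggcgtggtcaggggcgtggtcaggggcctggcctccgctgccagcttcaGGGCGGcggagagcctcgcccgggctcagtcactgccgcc
Camk1: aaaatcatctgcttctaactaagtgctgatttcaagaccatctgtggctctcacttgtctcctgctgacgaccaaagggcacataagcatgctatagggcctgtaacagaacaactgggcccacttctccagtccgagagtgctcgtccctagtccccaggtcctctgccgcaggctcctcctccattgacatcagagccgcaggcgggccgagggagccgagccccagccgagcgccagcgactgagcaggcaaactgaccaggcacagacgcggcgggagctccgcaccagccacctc
Opa1: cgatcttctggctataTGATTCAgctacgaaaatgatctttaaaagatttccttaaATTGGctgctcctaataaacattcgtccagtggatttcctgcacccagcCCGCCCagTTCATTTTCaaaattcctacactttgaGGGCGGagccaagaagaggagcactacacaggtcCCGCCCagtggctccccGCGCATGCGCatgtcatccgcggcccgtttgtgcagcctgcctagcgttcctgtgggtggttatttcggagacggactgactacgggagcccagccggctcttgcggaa

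The window of Zfp93, a zinc finger gene, lies at chr7:24270168-24270467 on the plus strand, and that of Tmod1, which caps actin filaments, at chr4:46038972-46039271 on the plus strand. The window of Trim2, a ubiquitin ligase gene, lies at chr3:84220828-84221127 on the minus strand. Bcam, which encodes a laminin-binding adhesion molecule, has its window at chr7:19770483-19770782, and Camk1, a calmodulin-dependent kinase gene, at chr6:113343873-113344172, both on the minus strand. The window of Opa1, the GTPase that fuses inner mitochondrial membranes, lies at chr16:29579084-29579383 on the plus strand. Zfp93 and Camk1 held none of the searched motifs. Tmod1 held 4 matches to the SP/KLF letters GGGCGG and 1 to the RUNX letters TGTGGTT. Opa1 held 3 SP/KLF matches, 2 overlapping matches to the NRF1 letters GCGCATGCG, 1 on each strand, and 1 each to the AP-1, NFY and IRF letters.

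These start windows had values that were higher without Scd1 in each cell type by the rule. At Zfp93 the values were 1.10 in DN3 control, 1.48 in DN3 knockout, 1.28 in naive control and 1.74 in naive knockout cells. At Opa1 they were 1.82, 2.31, 1.86 and 2.38 in the same order, from 241, 286, 312 and 343 summit fragments. Opa1 was thus the deepest covered of the printed windows and had nearly equal values in the 2 cell types. At Tmod1 the values were 1.37 and 1.79 in DN3 control and knockout cells, against 0.745 and 1.14 in naive cells. Camk1 likewise had lower values in naive cells, 0.596 and 1, than in DN3 cells, 1.04 and 1.33. Trim2 had values of 0.860, 1.13, 0.966 and 1.26, and Bcam 1.04, 1.34, 0.957 and 1.35, in the order used for Zfp93.

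Over the 24 start windows of members the median GC content was 60.8%, against 62.0% over the 11404 windows in any of the 36229 common regions and 56.7% over all 21045 windows of the table. The median number of CpG dinucleotides was 17.5, 22 and 13. SP/KLF matches were in 15 of 24 windows, 62.5%, against 68.3% of windows in common regions and 46.7% of all windows. The NFY letters CCAAT were in 7, 29.2%, against 38% and 38.5%. The ETS letters CCGGAAG, the core bound by a family with many members active in T cells, were in 1, 4.17%, against 19.4% and 11.7%. The E-box letters CAGCTG were in 5, 20.8%, against 14.1% and 15.7%, and the AP-1 letters TGANTCA in 2, 8.33%, against 4.11% and 7.04%. The IRF letters GAAANNGAA were in 2, 8.33%, against 6.76% and 8.10%.
The RUNX letters were in 1 window, 4.17%, against 3.37% and 4.74%, and the NRF1 letters in 1, against 4.01% and 2.37%. The YY1 letters AAGATGGCG were in 1, against 3.23% and 1.84%, and the GATA letters AGATAA in 1, against 5.53% and 9.68%. The CRE letters TGACGTCA were in 1, against 3.43% and 2.26%, and the E4F1 and CREB core TGACGT, which lies inside the CRE letters, in 1, against 12.4% and 8.58%. The TCF/LEF letters ATCAAAG were in 0 of 24, against 2.34% and 3.25%, and the NF-kB letters GGGANTTCC in 0, against 2.48% and 1.86%. The SREBP letters TCACNCCAC were in 0, against 1.08% and 1.20%, and the TATA box letters TATAAA in 0, against 5.90% and 12.7%. Each window is 4.17% of the 24. A match is a run of letters and not a measured binding site.

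The members were mostly weak regions in the control cells. The median value of the 300 was 0.874 in the DN3 control library, with a range of 0.297 to 3.64, and 1.17 in the DN3 knockout library, with a range of 0.375 to 4.68. In naive cells it was 0.681 in the control, from 0.211 to 3.19, and 0.973 in the knockout, from 0.273 to 4.49. A value of 1 is the median peak of the list. Over all 36229 common regions the medians were 1.33, 1.36, 1.16 and 1.23 in the same order, so the members lay lower in every library, the knockout libraries included. In the naive control 231 of the 300 members had a value under 1, 77%, against 39.7% of all. In the DN3 control 180 did, 60%, against 29.2%. Because the rule divides by the control values, it favours low ones, and these shares are a description.

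**Figure D1:**
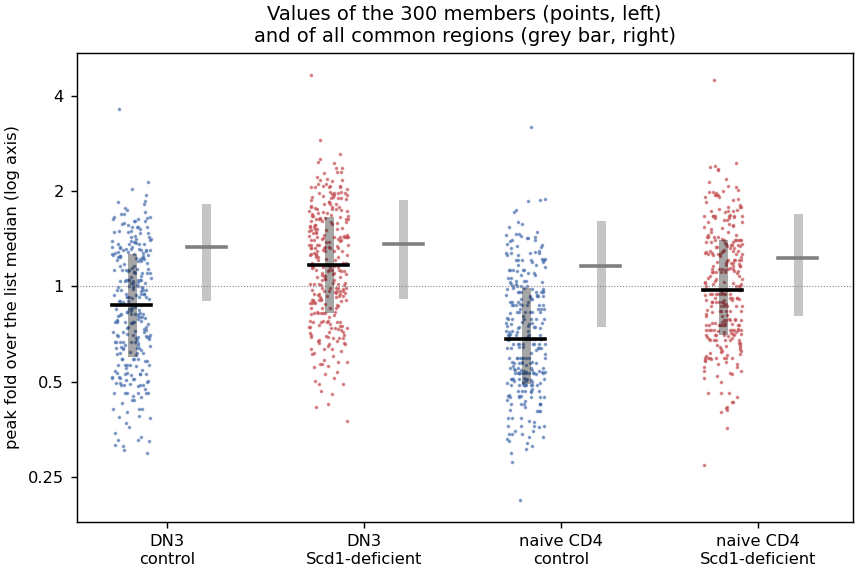
Values of the 300 members (points), the peak fold over the median of the list, on a log axis in the 4 libraries, beside those of all 36229 common regions (grey, right). Horizontal lines are medians and vertical bars run from the first to the third quartile. The members' medians are 0.874, 1.17, 0.681 and 0.973 in DN3 control, DN3 knockout, naive control and naive knockout cells, each below the median of all common regions.

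The DN3 ratio of the members had a median of 1.33 and ran from 1.24 to 2.11, and the naive ratio a median of 1.38 and ran from 1.24 to 2.40. Over all 36229 regions the medians were 1.03 and 1.05. In DN3 cells 1582 regions, 4.37%, were at or above the limit of 1.24, in naive cells 5087, 14%, and in both cell types the 300 members, 0.828%. At least 1.5-fold higher values were found for 32 members in DN3 cells, where 0.386% of all regions reached that size, and for 72 in naive cells, where 3.73% did. Both ratios reached 1.5 in 11 regions, 0.0304% of all. In the opposite direction the shares of all regions at least 1.5-fold lower were 0.486% in DN3, 0.511% in naive cells and 0.011%, 4 regions, in both. With values scaled to the median of the common regions in place of the whole list, 8 regions were at least 1.5-fold higher and 7 at least 1.5-fold lower in both, in place of 11 and 4. At the size of the members' limit, 86 regions, 0.237%, were lower in both cell types. The rule used these contrasts, so the shares describe how the 300 sit in the whole and do not support it.

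Across all common regions the ratios in the 2 cell types had almost no relation. The correlation of the log2 ratios over the 36229 regions was -0.03 (Pearson) and -0.03 (Spearman). It is a description, because the regions of a cell type share 2 libraries. Of the 1582 regions at or above the limit in DN3 cells, 19% were so in naive cells too, against 14% of all regions. With the regions divided by strength into 4 bins of equal size, in the weakest bin these shares were 21.0% and 18.1%, in the next 16.6% and 17.5%, in the third 19.4% and 13.4%, and in the strongest 15.2% and 7.23%. The spread of the log2 ratios also fell with strength, from an SD across regions of 0.23 to 0.12 in DN3 cells and from 0.28 to 0.15 in naive cells.

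**Figure D2:**
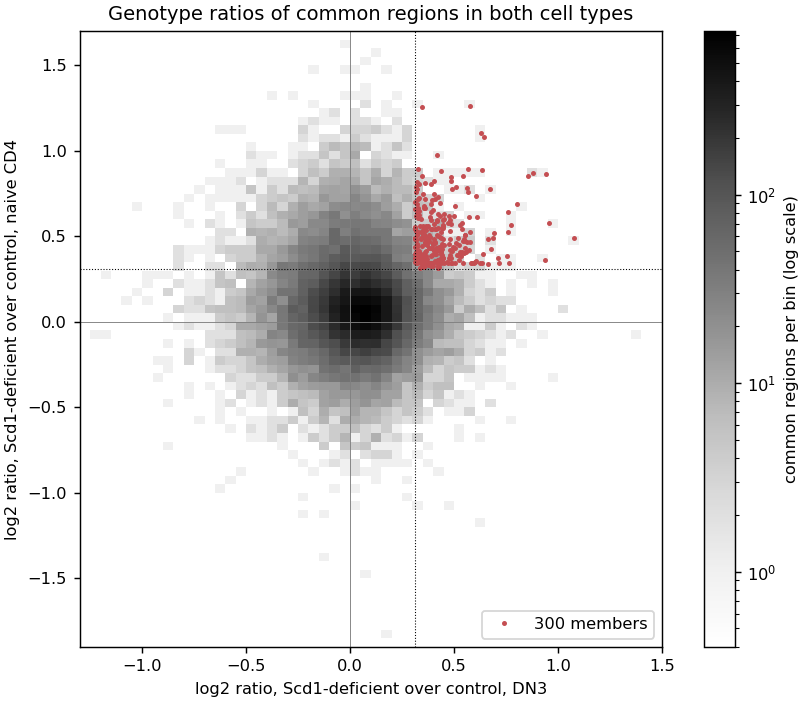
The common regions by the log2 ratio of Scd1-deficient to control value in DN3 cells (x axis) and in naive CD4 T cells (y axis), with the number of regions per bin in grey on a log scale, the 300 members as red points and the limit as dotted lines. The cloud of 36229 regions has no slope, and the 300 members fill the corner where both ratios are at least 1.24.

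The highest smaller ratio was that of a region 1.98 kb from an end of Dedd, which encodes a death effector domain protein, at chr1:171321398-171322678. Its values were 0.538 in DN3 control, 0.992 in DN3 knockout, 0.872 in naive control and 1.59 in naive knockout cells, from 20, 35, 40 and 58 fragments. The ratios were 1.84 in DN3 and 1.83 in naive cells, and the 2 genotypes differed by about the same factor in each. Its DN3 ratio has a counting interval of 1.06 to 3.44, and its 4 summits spread over 607 bp. A region inside Kif3b, a motor subunit of kinesin-2, at chr2:153318977-153319674, had values of 0.487, 0.937, 0.489 and 0.892 in the same order, with ratios of 1.92 and 1.82. The control values of Kif3b were alike in the 2 cell types, and so were the knockout values. A region inside Umad1, at chr6:8364227-8365593, had values of 0.821, 1.49, 0.404 and 0.730, with ratios of 1.81 in both.

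Stat2, which carries the signal of type I interferon to the nucleus, held the region with the fourth highest smaller ratio, 8.32 kb inside the gene at chr10:128283678-128284532. Its values were 0.821 and 1.43 in DN3 control and knockout cells and 0.787 and 1.27 in naive control and knockout cells. The DN3 ratio was 1.75, with a counting interval of 1.11 to 2.86, and the naive ratio 1.61, with an interval of 1.03 to 2.58. The fragments behind them were 31 and 51 in DN3 and 36 and 46 in naive cells. Xrcc5, the Ku80 subunit that joins broken DNA ends during V(D)J recombination, held a region at chr1:72313404-72314169 with values of 0.846, 1.35, 0.426 and 0.730. Dock2, an activator of Rac in migrating lymphocytes, had a region 3.18 kb from its end at chr11:34222865-34223631 with values of 0.928, 1.41, 0.334 and 0.555. Both were stronger in DN3 than in naive cells in each genotype.

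Other members among the 20 highest were more distinct in naive cells. A region 1.64 kb from an end of Rab33a, a small GTPase of vesicle traffic, at chrX:48531879-48532709, had values of 1.13 and 1.76 in DN3 and of 0.638 and 1.35 in naive cells, control before knockout. Its naive ratio was 2.12 and its DN3 ratio 1.56. A region inside Zfp64, a zinc finger gene, at chr2:168929517-168930314, had values of 1.14, 1.71, 0.383 and 0.919, and its naive ratio of 2.40 was the highest of the 300. The naive ratio of Zfp64 rested on 17 and 33 fragments. Brwd1, which encodes a bromodomain protein that reads acetylated histones, held a region at chr16:96030814-96031349 with values of 0.872, 1.35, 0.489 and 1.05. Slc1a2, a glutamate transporter gene, held one at chr2:102732919-102733904 with values of 1.36, 2.11, 0.511 and 0.946.

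The other pattern, a larger ratio in DN3 cells, was that of a region inside Dctn6, a subunit of dynactin, at chr8:34097305-34098160. Its values were 0.360, 0.699, 0.542 and 0.807, with a DN3 ratio of 1.94 and a naive ratio of 1.49, whose intervals were 1.31 to 3 and 1.10 to 2.03. The highest DN3 ratio of the 300, 2.11, belonged to a region inside Btbd16 at chr7:130800437-130802109, whose values were 0.315 and 0.664 in DN3 and 0.596 and 0.838 in naive cells. It rested on 20 and 28 fragments in DN3 cells. The region of Phc3, a polycomb group gene, at chr3:30975243-30975979 was the strongest of the 20 highest in naive control cells, with values of 1.31, 1.90, 1.43 and 2.08.

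**Figure D3:**
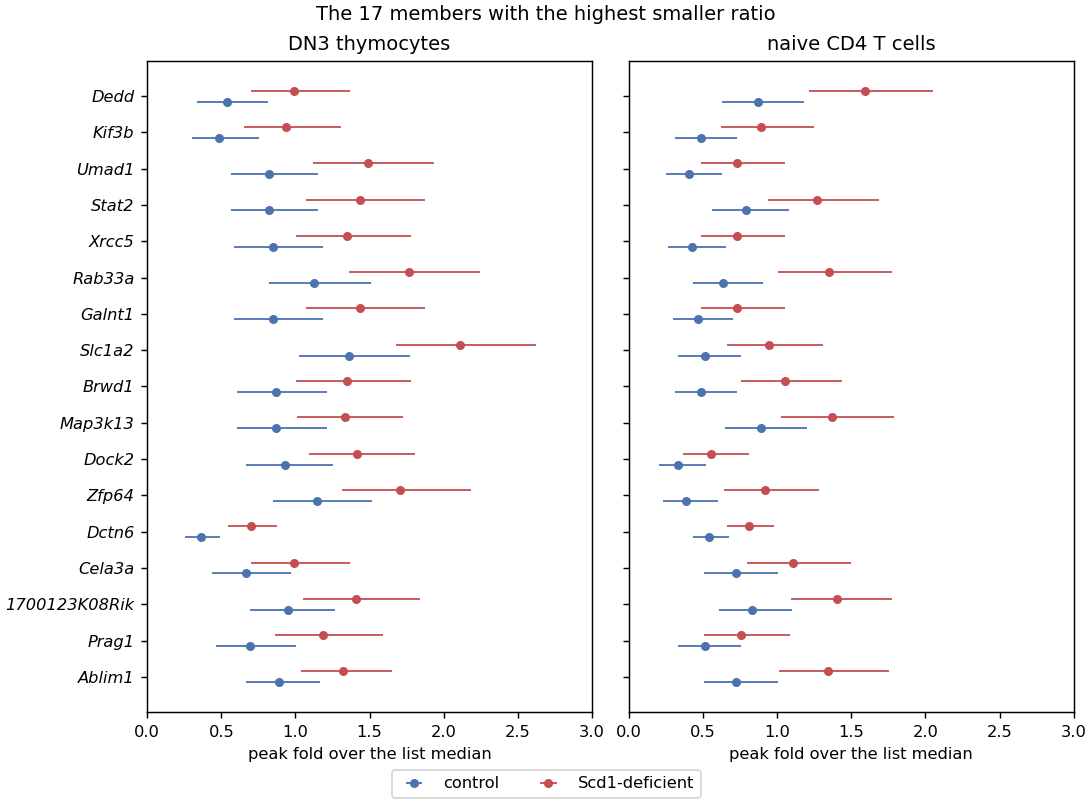
Values of the 17 members with the highest smaller ratio in the 4 libraries, 1 row per region named by the gene that holds it or has the nearest end, with DN3 cells on the left, naive CD4 T cells on the right, and the peak fold over the list median on the x axis. Bars are 95% Poisson intervals of the summit fragments. In every row the knockout value lies above the control value of its cell type, as the rule requires, and the control values range from 0.334 (Dock2, naive) to 1.36 (Slc1a2, DN3).

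Across the set, naive ratios were larger than DN3 ratios in 186 of 300 members, 62%, against 55.5% of all regions. The strongest member by value, 11.4 kb from an end of Snx6, a sorting nexin gene, at chr12:54734346-54734894, had values of 3.64, 4.68, 3.19 and 4.49. The member with the lowest naive values, inside Ap2a2, which encodes a clathrin adaptor subunit, at chr7:141573572-141574279, had values of 0.325, 0.455, 0.211 and 0.273. Ratios at Snx6 were 1.29 and 1.41, and at Ap2a2 1.40 and 1.29. Both regions were named after their values were seen.

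The fragments behind the ratios were few. At the summit the members had a median of 53 fragments in DN3 control, 65 in DN3 knockout, 42 in naive control and 48 in naive knockout cells, against 135, 124, 142 and 114 over all common regions. The ratio of knockout to control fragments had a median of 1.21 in DN3 and 1.10 in naive cells, where all regions had 0.947 and 0.798. More fragments in the knockout than in the control were found at 291 of 300 members in DN3 cells and at 232 in naive cells, against 30.2% and 15.3% of all regions, as a consequence of the rule. The local background was lower in the knockout by a ratio of 0.948 in DN3 and 0.714 in naive cells, close to the medians over all regions, 0.946 and 0.714. In the naive control 60.7% of members had their background at the lowest value of the list, against 21.0% of all regions, and in the naive knockout 49% against 18%. Some members had equal naive fragments in the 2 genotypes and both naive backgrounds at the lowest value. Among them were regions inside Dnajc17, Arhgef19 and Themis and near Dyrk2, each with a naive ratio of 1.27, above the limit. The part of the lower background, and of the narrower narrowest peak of the naive knockout list, in the naive ratios was not tested.

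Most members were not distinct from equality by counting error in each cell type. The interval of the ratio lay above 1 for 66 of 300 in DN3 cells, where 2.68% of all regions passed this, for 75 in naive cells, where 7.47% did, and in both cell types for 27 members, against 0.221% of all. The rule chose on the same ratios, so these counts are descriptions. Poisson intervals of the fragment counts on the value scale did not overlap for 6 members in DN3, 2%, 17 in naive cells, 5.67%, and 0 in both, against 0.243%, 1.65% and 0.00552% of all regions. The 27 members included 10 of the 20 highest, among them Dedd, Kif3b, Stat2, Rab33a, Zfp64, Dctn6 and Phc3. They also included regions near Lef1, inside Cd247 and at the start of Opa1. A region 19.4 kb from an end of Tlx1, a homeobox gene, was another, with values of 1.45, 2.06, 0.830 and 1.44.

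Weak regions gave more members. The 4 bins of strength, the geometric mean of a region's 4 values, meet at 0.891, 1.24 and 1.64. The weakest bin held 151 members, 1.67% of its regions, the next 80, 0.883%, the third 50, 0.552%, and the strongest 19, 0.210%. Width went the same way. Members were a median of 830 bp wide, from 500 to 2656, against 1155 bp over all. From 500 to under 750 bp 2.18% of regions were members, from 750 to under 1000 bp 1.15%, from 1000 to under 1500 bp 0.453%, and from 1500 bp upwards 0.370%. The widest members lay at the start of Tmod1, 2656 bp, at Fignl2, 2644 bp, inside Arhgef19, 2525 bp, 64.5 kb from Atg7, 2419 bp, and at the start of Clstn1, 2231 bp.

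The summits of the members were about as far apart as those of all regions, with a median spread of 67 bp against 59 bp. All 4 were within 100 bp in 196 of 300, 65.3%, against 68.9% of all regions and 47% of the 300 regions at the other end of the order, which had the lowest larger ratio. The spread of the members reached 1236 bp, near Lef1, and was 990 bp inside Abcg1 and 1091 bp near Atg7. A single peak was called in every library at 281 members, 93.7%, against 93.4% of all. The peak of the knockout library was wider than that of the control at 156 members in DN3 cells, 52%, against 43% of all, and at 151 in naive cells, 50.3%, against 27.1%. Over all regions naive knockout peaks were thus mostly narrower, and among the members they were about as often wider. Peak width was not examined apart from the choice of members by higher knockout values, so these shares are a description.

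Members were found mostly away from gene starts. The 24 at a start window were 8% of the 300, against 25.1% of all common regions, and a further 22, 7.33%, lay within 1 kb of another annotated gene end, against 10.3%. Inside genes lay 140, 46.7%, against 35.2%, and outside genes 114, 38%, against 29.4%. The 300 regions with the lowest larger ratio had shares of 3.67%, 6.33%, 49.3% and 40.7% in the same order, so both ends of the order were poor in gene starts. More than 50 kb from any annotated end lay 15% of members, 26.7% of that opposite set and 13.4% of all regions.

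**Figure D4:**
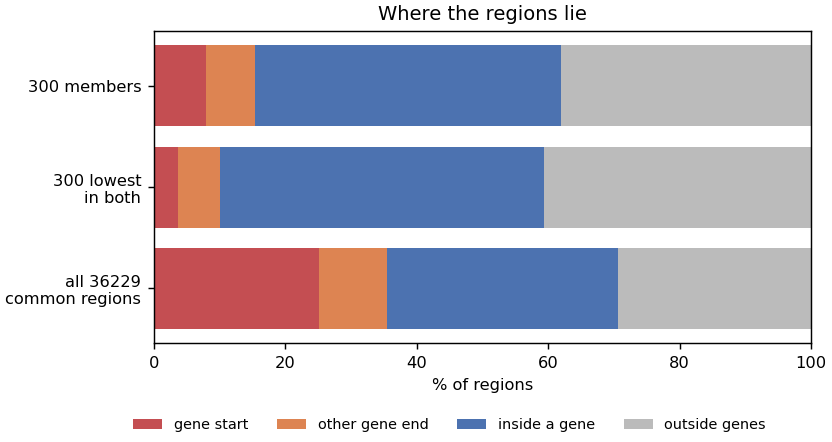
Share in percent (x axis) of regions at a gene start, at another gene end, inside a gene and outside genes, for the 300 members, the 300 regions with the lowest larger ratio and all 36229 common regions. Gene starts make up 8% of the members and 25.1% of all regions.

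Gene starts were also the strongest regions, with a median strength of 1.53 against 1.09 inside genes, and the shares were therefore compared within the 4 bins of strength. In the weakest bin 0.875% of gene starts were members, 1.40% of other gene ends, 1.90% of regions inside genes and 1.70% of those outside. In the second bin the shares were 0.531%, 0.467%, 0.927% and 1.15%. In the third they were 0.0782%, 0.447%, 0.751% and 0.822%, and in the strongest 0.105%, 0.0957%, 0.201% and 0.454%. The share was lower at gene starts than inside or outside genes in each of the 4 bins. Only 24 members lay at gene starts over all 4 bins, so these shares rest on few regions. Width, which also went with the share of members, was not held equal. The share at gene ends within 1 kb, 14% against 32.4% of all, changed with the minimum width: with 1000 bp in place of 500 it was 25.3% of the 300 highest. The share of all common regions of that width was not measured, so the 2 shares cannot be compared as depletion.

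**Figure D5:**
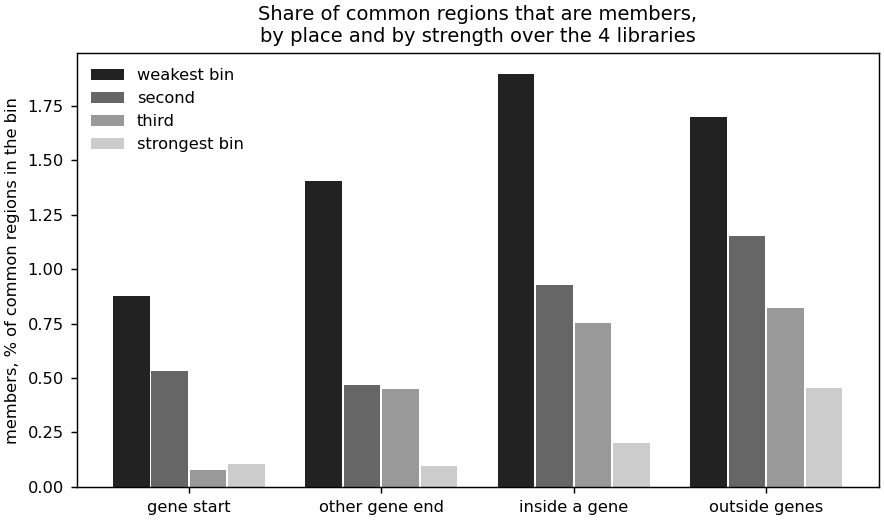
Share in percent of the common regions that are members, by place (x axis) and by bin of strength (dark bars weakest, light bars strongest). Shares fall with strength in each place apart from gene starts between the third and the strongest bin, from 1.90% to 0.201% for regions inside genes, and gene starts lie below regions inside and outside genes in all 4 bins. The bars of gene starts rest on 24 members in all.

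Among members at a gene start or end, the region with the highest smaller ratio lay 0.992 kb from an end of Hsd17b13, which encodes a lipid droplet protein, at chr5:103975641-103976396. Its values were 0.693 and 1.12 in DN3 and 0.577 and 0.828 in naive cells, control before knockout, with ratios of 1.62 and 1.44. A region at an end of Fcho1, a starter of clathrin-coated pits, at chr8:71707847-71708518, had values of 0.840, 1.15, 0.641 and 0.972. The strongest of the 10 highest lay at the start of Tmem270, at chr5:134906938-134907648, with values of 2.14, 2.90, 1.72 and 2.33 and a ratio of 1.35 in each cell type. At the start of Clstn1, a calsyntenin gene, at chr4:149585630-149587860, the values were 0.883, 1.18, 0.960 and 1.41.
The other members of these 10 lay at Fignl2, Eppk1, Gm40365, Zfp93, Alg1 and Cc2d1b. Alg1, a mannosyltransferase that builds the sugar chain for protein glycosylation, had the largest naive ratio of the 10, 1.66, with values of 1.04 and 1.73. At Eppk1, the epiplakin gene, the values were 0.581, 0.827, 0.511 and 0.703. Starts of members further down the order included that of Mfsd2a, which carries lysophosphatidylcholine into cells, with values of 0.644, 0.827, 0.739 and 1.02. They also included that of Tlr3, the sensor of double-stranded RNA, with values of 0.923, 1.16, 0.596 and 0.946. These 2 were named after their values were seen.

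Few members lay near genes of T cell, signalling or lipid pathways. With 17 gene lists of 383 genes, 8 members lay in the body or within 10 kb of a list gene, 2.67%, against 4.20% of all common regions and 14 of the opposite 300. The median ratio of a list's regions was 1.01 to 1.06 in DN3 and 1.03 to 1.09 in naive cells, close to the medians of all regions, 1.03 and 1.05. Lists without a member were naive homing and quiescence, with 126 common regions, helper and effector genes with 89, AP-1 and immediate early genes with 54, NF-kB and cytokine signalling with 106 and Wnt signalling with 102. Fatty acid synthesis and desaturation, with 85 regions, and fatty acid oxidation and lipid storage, with 57, also had 0 members. Stress genes, cell cycle genes and survival genes had none of 59, 75 and 76. With 0.828% of all regions being members, counts of 0 to 2 do not set a list apart. Of the marker lists, those of DN3 cells, naive CD4 cells, B cells, myeloid cells, erythroid cells and stroma had 0 members near their genes. Those of CD8 and double-positive cells and of NK and gamma-delta cells had 1 each, in Themis and in Sox13, whose region had values of 0.312, 0.425, 0.638 and 0.892.

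Lef1, an HMG-box factor of early T cells, had the 1 member of 177 regions of the T lineage transcription factors, 2.5 kb from an end of the gene at chr3:131105829-131107794. Its values were 0.328 in DN3 control, 0.536 in DN3 knockout, 0.472 in naive control and 0.613 in naive knockout cells, with ratios of 1.64 and 1.30. The intervals were 1.26 to 2.12 and 1.07 to 1.57. The 4 summits spread over 1236 bp, the widest spread of the 300, so the values were not all read at the same place. The summit fragments were 121, 119, 233 and 206, so the number of fragments was not higher without Scd1 in either cell type. The local background at Lef1 was 53.6 and 32.8 fragments in DN3 control and knockout cells and 63.4 and 41.5 in naive cells, lower without Scd1 in both. Cd247, the CD3 zeta chain, had the 1 member of 103 regions of the Notch and pre-TCR list, at chr1:165816355-165817880. Its values were 0.519, 0.689, 0.716 and 0.916, from 96, 120, 288 and 224 fragments. In naive cells the count at Cd247 was therefore lower without Scd1 while the value was higher.

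Themis, which sets T cell receptor signalling during thymic selection, had the 1 member of 154 regions of the TCR signalling list, at chr10:28805048-28805624. Its values were 0.462, 0.716, 0.468 and 0.595, from 17, 25, 21 and 21 fragments, and both intervals included 1. The Stat2 region given above was the 1 of 35 regions of the interferon response. Abcg1, which exports cholesterol, had the 1 of 52 regions of cholesterol synthesis and uptake, at chr17:31088888-31090276, with values of 0.497, 0.734, 0.681 and 0.941. Of 124 regions of chromatin and architecture genes, 2 were members. The region inside Stag1, a cohesin subunit gene, had values of 0.846, 1.10, 0.938 and 1.26. Polr2a, the largest subunit of RNA polymerase II, had the 1 of 63 housekeeping regions, 4.39 kb from its end, with values of 1.24, 1.69, 0.830 and 1.22.

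The members are described between cell types by their control values. The rule divides by these values and so favours low ones, and the shares that follow are a description. The DN3 value was the higher in 207 of 300, 69%, against 70.2% of all regions, with a median of DN3 over naive of 1.19 against 1.14. At least 1.5-fold higher in DN3 cells were 86, 28.7% against 19.3% of all, and at least 1.5-fold higher in naive cells 24, 8% against 5.47%. Regions of like strength were not compared for this. The highest was a region 64.5 kb from Atg7, an enzyme of autophagy, at chr6:114576179-114578597, with 1.69 in the DN3 and 0.383 in the naive control, a ratio of 4.41. Without Scd1 the values at Atg7 were 2.11 and 0.595. Regions inside Dnajc17, at the start of Rfx8, 73.6 kb from Speer2 and inside Spata13 followed, with ratios of 3.67, 3.56, 3.28 and 3.20.
At the other end, a region 209 kb from Rasa1, which encodes a Ras GTPase-activating protein, at chr13:85498563-85499485, had 0.462 in the DN3 and 1.21 in the naive control, a ratio of 0.380. Without Scd1 the values at Rasa1 were 0.689 and 1.68. Regions inside Akap6 and near Dyrk2, Mmd and Gm45988 had ratios of 0.424, 0.448, 0.468 and 0.479. At Akap6 the DN3 values were 0.304 and 0.515, with an interval of the DN3 ratio of 1.22 to 2.41, and the naive values 0.717 and 1.03. In 7 of these 10 regions the weaker control value rested on 15 to 24 fragments.

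The members were spread over the genome. Every autosome and the X chromosome held some, from 0.471% of the common regions of chromosome 8 to 1.28% on chromosome 16, and 10 of 783 regions on X, 1.28%. There were 3 pairs within 50 kb of each other, each inside 1 gene. In Slc1a2 the gap was 9.96 kb, in Cubn, which encodes an intestinal and renal uptake receptor, 27.2 kb, and in Clstn1 40.1 kb. Tasp1, the protease that cleaves MLL, held 2 members further apart. The second Slc1a2 region had values of 0.974, 1.21, 0.532 and 0.676, lower ratios than the first. Its naive values rested on 24 fragments in each genotype, so the naive count was not higher without Scd1. In Cubn the values were 1.03, 1.43, 0.404 and 0.541 at the region of the higher smaller ratio and 0.532, 0.701, 0.463 and 0.635 at the other.

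The limit of 1.24 has no gap at it. Just inside lay regions of Hrh3, with ratios of 1.24 in DN3 and 1.30 in naive cells, Itpk1, with 1.26 and 1.24, and Ksr2, with 1.24 and 1.46. Just outside lay regions of Mbp, with 1.24 and 1.26, Pigt, with 1.28 and 1.24, and Dpysl5, with 1.24 and 1.29. Scd1 itself had no member. The common region at its end, chr19:44406551-44408833, had values of 1.38 in DN3 control, 1.34 in DN3 knockout, 0.870 in naive control and 0.801 in naive knockout cells, with ratios of 0.968 and 0.920. A region 5.02 kb from the gene, at chr19:44388099-44389434, had values of 1.80, 1.81, 1.98 and 2.14. Since the deleted part is not known, neither region checks the genotype.

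The set was also valued in 3 other ways, by the width-weighted mean of the peak folds, by the recovered summit fragments over their list median, and by the difference of percentile ranks. Of the 300 members 85 were among the 300 highest under all 3, and they included 18 of the 20 highest, without Dock2 and Eml1. Of these 85, 36 lay inside genes, 42 outside, 3 at a gene start and 4 at another end. By fragments alone 163 of the 300 were kept, and 38 regions in place of 11 were at least 1.5-fold higher in both cell types. The 20 highest lie furthest inside the limit, so their number among the 85 says nothing of their order.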

How the data were processed

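ATAC-seq libraries of 4 groups, 1 each, took their groups from the labels of genotype and cell type. Per the submitters' processing notes, Trimmomatic, BWA, MACS2 and the build mm10 were used. Settings, versions, duplicate handling and any Tn5 shift were not given in the sources used here. A narrow peak list per sample, called separately, was deposited by the authors. Each deposited peak carries a fold, a linear ratio of summit pileup to local background, each with 1 added. The authors' score, −log10 p and −log10 q describe how far a summit exceeds that background and so rise with depth.

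Summit fragments were recovered as whole numbers, within a tolerance of 0.05, from the fold and −log10 p for 100% of peaks. Fragment counts have exact Poisson intervals and ratios exact Clopper-Pearson intervals at 95%, with the local background taken as known. Dividing by the list median leaves in any difference that depends on strength. Genes came from RefSeq (GRCm38.p6, 21631 protein-coding genes) and start windows from a RefSeq table of 17274 genes, which is not complete and holds no window on chromosome 18. No genome was used, so GC content of whole regions was not measured. Of 445 list and marker symbols 443 matched.

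The members and lists were chosen with earlier results of these data known. Genes are named by the gene that holds the region or has the nearest end. The rule takes the 20 members with the highest smaller ratio, the 10 highest at a gene start or end, up to 3 per list, the 5 highest and 5 lowest DN3 over naive, genes with several members, the 5 widest, 3 regions on each side of the limit, and Scd1. Some of these are given by name or count only, and a few items are not reported here. No test across the 4 libraries was run, and the steps were tested on simulated data. The simulated rises were larger than the members' median ratios, so changes of the members' usual size were not covered. Alternatives changed the valuation, scaling, merge, width, number of members, q, windows and flanks. Python 3.11.15, numpy 2.4.6, pandas 2.3.3, SciPy 1.17.1 and Matplotlib 3.10.9 were used.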

Additional observations from a re-analysis of the deposited data

How the results depend on the processing

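Each group has 1 library, so no replicate was left out, and the labels give no replicate numbers to pair. Under the alternatives 54 values moved little and 33 moved further. Some of the 54 could not move, as the 1.5-fold counts do not depend on how many members are taken. The median ratios of the highest regions lie above 1 by the rule, so their direction is no check. Valued by recovered fragments, 163 of the 300 members were kept, 38 regions were at least 1.5-fold higher and 2 at least 1.5-fold lower in both cell types (11 and 4 as reported), the members' median ratios were 1.39 in DN3 and 1.44 in naive cells (1.33 and 1.38), and their DN3 over naive control ratio was 1.51 (1.19). Ranks kept 152 and give no ratios. Scaled to the median of the common regions, the ratios were 1.28 and 1.33, the control ratio 1.07, and 8 regions were higher and 7 lower in both. A minimum width of 1000 bp kept 98 members, by construction those at least that wide, and left 3 regions 1.5-fold higher. The 300 highest then had ratios of 1.24 and 1.30, 25.3% at a gene end (14%) and a median width of 1312.5 bp (830). The gene-end share of all regions this wide was not measured. Without a minimum the width was 768.5 bp. Peaks with a −log10 q of at least 10 kept 181, with ratios of 1.28 and 1.34, 3 regions higher and 0 lower. The 150 highest, by construction 150 kept, had ratios of 1.37 and 1.41 and 9.33% at a gene end, and the 600 highest ratios of 1.27 and 1.33. A gene-end window of 2.5 kb gave 19.7%, against 37.8% of all common regions. A flank of 50 kb gave 16 of 300 members near list genes (8), where the share of all common regions was 8.01% (4.20%). An alternative chosen after seeing the data, local background under 2 times the lowest in all libraries, was met by only 9017 common regions. It kept 189 with a DN3 ratio of 1.29. Apart from these constructions the causes were not tested. At this depth counting intervals lay above 1 in both cell types for 27 of 300 members.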

Other observations

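Outside the 300, 53 common regions had counting intervals above 1 in both cell types with a smaller ratio below the limit. They were stronger and wider than the members, with a median strength of 1.45 and a median width of 1496 bp, and their median ratios were 1.17 in DN3 and 1.16 in naive cells. Of the 53, 35 lay at a gene end, where 32.4% of all common regions did, and 21 in the strongest of 4 equal bins of strength. Since an interval narrows with the number of fragments, well covered regions reach this count at smaller ratios. A region outside genes at chr2:98666551-98667324, for example, had 15667, 15406, 18044 and 16408 fragments, with ratios of only 1.03 in DN3 and 1.15 in naive cells. Its local background was 830, 812, 1188 and 911 fragments, against medians of 14.8, 13.7, 15.4 and 11.0 over all common regions. Regions of such extreme coverage were not removed, and whether this one is accessible chromatin was not tested. The start of Bahd1, a heterochromatin protein gene, at chr2:118900605-118903112 had values of 0.875 and 1.07 in DN3 and 0.746 and 0.947 in naive cells, control before knockout, from 326, 355, 429 and 441 fragments. The start of Tcam1 had values of 0.871, 1.08, 0.643 and 0.782. A region 0.829 kb from an end of Gimap7, a GTPase gene of lymphocytes, had values of 0.384, 0.715, 0.595 and 0.727, and its DN3 values rested on 21 and 35 fragments against 376 and 305 in naive cells. These regions were named after their values were seen.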
